A study of Mus musculus with 62 samples.

Results

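Quadriceps muscle of sedentary mice that received both nicotinamide riboside (NR) and pterostilbene (PT) was compared with that of sedentary mice that received PT without NR. The compared groups, labelled noTraining_NR_PT and noTraining_noNR_PT, held 8 mice each, chosen by their titles, and made up 16 of the 62 mice in the series. The series crossed voluntary wheel running, NR and PT in all combinations, in male mice, and poly-A RNA was sequenced and counted per gene. Both compared groups carry the label noTraining and both received PT, so that NR was the single labelled treatment that differed. The series title gives an intravenous route for NR, whereas the labels record only its presence or absence, and no strain, age or dose of NR or PT is given in the labels used here. Each group had 1 mouse on each of 8 days of termination, 4 days in cohort 1 and 4 in cohort 2, and both mice of a day were terminated at the same time of day, morning or noon. In these mice all of cohort 1 belonged to purification pool 1 and all of cohort 2 to pool 3, so cohort and pool cannot be told apart.

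NR is a form of vitamin B3 that cells phosphorylate through the kinases Nmrk1 and Nmrk2 and turn into nicotinamide adenine dinucleotide (NAD), the electron carrier that also serves as substrate of sirtuins and PARPs. PT is a plant stilbenoid, a dimethoxy relative of resveratrol. Adult muscle fibres keep acetylcholine receptors under the nerve ending, with an epsilon subunit in place of the gamma subunit of fetal muscle. After loss of nerve input, and during regeneration, fibres again transcribe fetal genes, among them the gamma subunit gene Chrng, embryonic and perinatal myosins, and genes for the fusion of myoblasts.

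The 16 libraries held 13.4 to 25.6 M counts with NR and PT and 9.23 to 30.8 M with PT alone, so a level of 1 CPM, the usual unit of counts scaled to library size, stands for few reads. The protocols name no molecular identifiers, so reads may be copies of the same molecule. Muscle identity was plain in every library, since 10 fibre markers such as Ckm and Acta1 together took 143835 to 185979 CPM with NR and 151540 to 188138 CPM without. RNA integrity numbers were 9.66 ± 0.160 with NR and 9.60 ± 0.389 without (SD, n = 8 each, exact paired permutation test, two-sided, p = 0.750). Within cohorts they differed in opposite directions, with medians of 9.65 against 9.25 in cohort 1 and 9.55 against 10 in cohort 2. A summed share of ribosomal-RNA-like genes, defined after the data were seen, exceeded 5 times the series median in 3 of the 8 NR with PT libraries and in 0 of the 8 with PT alone. Values from the fit without the libraries rich in such reads stand beside several of the leading genes and lists. Body weight change, in a unit the labels do not state, was 1.95 ± 1.79 with NR and 3.28 ± 1.23 without (SD), lower with NR on 5 of 8 days (exact paired permutation test, two-sided, p = 0.164, Benjamini-Hochberg adjusted p = 0.430 over 5 measures). The smallest p this pairing allows is 0.00781. Medians of body weight change were 2.05 with NR against 2.35 without in cohort 1, and 1.15 against 4.4 in cohort 2.

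Adding NR to PT changed no gene past the threshold. Of 14549 genes tested, 0 (0%) reached an adjusted p below 0.05 with edgeR, and 451 (3.1%) had an unadjusted p below 0.05, 218 of them (1.5% of all) higher and 233 (1.6%) lower with NR. DESeq2 also called 0 genes, with 483 at an unadjusted p below 0.05. Limma-voom called 2, Chrng and Mymk, each with an adjusted p of 0.00464 and both higher with NR, and had 546 at an unadjusted p below 0.05. An edgeR fit to the 32 non-running mice alone called 1 gene, Chrng (adjusted p = 0.0238). Over all mice, 10 libraries for Chrng and 11 for Mymk met the level set by the filter on low counts. For each gene 7 of these were from mice with NR and PT and 0 from mice with PT alone. Both genes thus entered the test through the group in which they were high, and their calls are not independent of that selection. In edgeR without the filter on low counts 0 of 35005 genes were called, and the lowest adjusted p was 0.330. Most expressed genes lay close to no difference: among 12489 genes with at least 1 CPM the median absolute log2 difference was 0.06, against a median standard error of 0.09, and 38 genes differed by more than 1.5-fold. The 12 genes beyond 2-fold were Nmrk2, Myh3, Sln, Myl3 and 8 genes, ribosomal-RNA-like genes and Lars2 among them, that lay above 0 in the fit to all mice. Without the libraries rich in ribosomal-RNA-like reads those 8 lay between -0.46 and 0.53 on the log2 scale, and they are not described further.

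**Figure D1:**
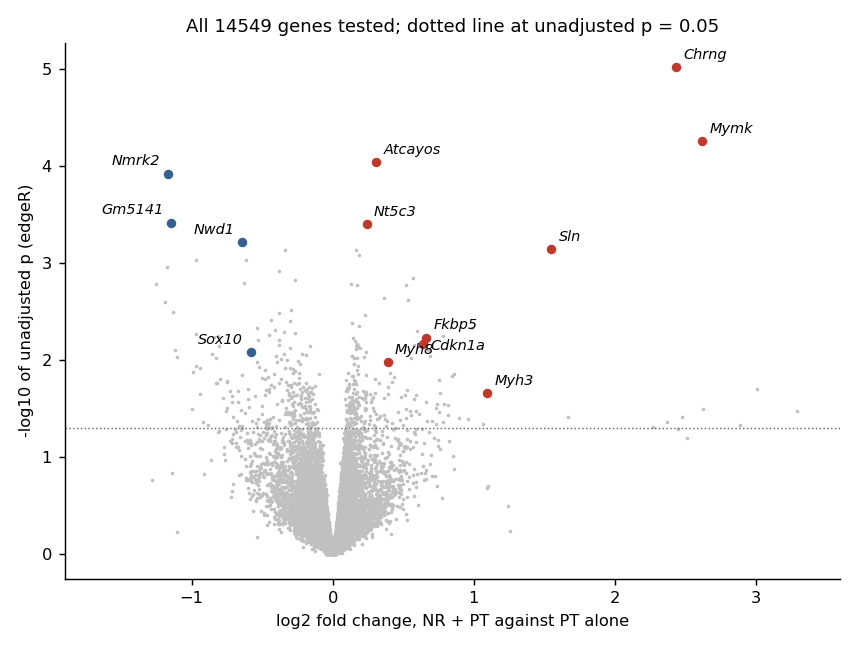
Log2 fold change of NR with PT against PT alone (horizontal) and -log10 of the unadjusted edgeR p (vertical) for all 14549 genes tested, with named genes in red where higher and blue where lower with NR. Chrng and Mymk stand at the upper right and Nmrk2 at the upper left, and no gene passes after adjustment.

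The smallest p-value of the comparison belonged to Chrng, the gene of the fetal gamma subunit of the muscle acetylcholine receptor (ENSMUSG00000026253, mm10 chr1:87204657-87212694, plus strand). Its level ran from 0.442 through a median of 0.806 to 1.25 CPM in the 8 mice with NR and PT, and from 0.0715 through 0.177 to 0.249 CPM in the 8 with PT alone. The ranges did not overlap, which held for 2 of 14549 genes (0.0137%), and the mouse with NR was the higher on 8 of 8 days. The fitted log2 difference was 2.43 ± 0.50 (SE), or 5.40-fold (edgeR adjusted p = 0.138). It was 2.47 ± 0.67 in cohort 1 and 2.28 ± 0.72 in cohort 2. Without the libraries rich in ribosomal-RNA-like reads it was 2.44. The adjusted p ranged from 0.00464 to 0.969 over 12 other fits and from 0.0768 to 0.923 when 1 mouse was left out at a time. The transcript was rare, at 7 to 24 reads per library with NR and 1 to 8 without. Of the 10 libraries in the series that met the level set by the filter on low counts, 7 were from mice with NR and PT and 0 from mice with PT alone, so the gene entered the test through the group in which it was high. Since the tissue was sequenced whole, more cells or nuclei that transcribe a gene and more RNA per cell cannot be told apart, here and in the results that follow.

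The 250 bases before the RefSeq start of Chrng (GRCm38.p6, chr1:87205561-87205810, plus strand) are shown because this gene led the comparison, a choice made after its values were seen. That start lies inside the gene span deposited with the counts. Capitals mark matches to the E-box CANNTG, the site read by myogenic factors such as MyoD and myogenin, which reads as CANNTG on either strand.
Chrng: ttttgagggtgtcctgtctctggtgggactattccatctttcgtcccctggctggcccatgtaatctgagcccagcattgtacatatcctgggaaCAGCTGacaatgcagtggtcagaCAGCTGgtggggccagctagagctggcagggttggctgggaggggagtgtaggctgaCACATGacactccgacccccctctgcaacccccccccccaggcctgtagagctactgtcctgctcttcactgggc
The window holds 3 E-boxes, at 155, 132 and 75 bases before the start, of which 2 are of the form CAGCTG. Of 32851 RefSeq windows of this length 66.2% hold a CANNTG, 12.2% hold at least 3, 13.0% hold a CAGCTG and 1.26% hold at least 2. These are matches of letters, and the counts carry no measurement of binding. The search also covered Mymk, Sln and Cdkn1a, and no window was in the RefSeq table for Mymk or Sln. For Cdkn1a, the window at chr17:29090729-29090978 held 0 E-boxes. The Cdkn1a window at chr17:29093519-29093768 held 1, a CAGGTG at 187 bases before the start, and neither window held a CAGCTG.

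The other 4 subunit genes of the muscle receptor lay near 0 over all mice. Chrna1 (alpha) had a log2 difference of -0.01 ± 0.12, Chrnb1 (beta) of 0.03 ± 0.07, Chrnd (delta) of 0.04 ± 0.16 and Chrne (epsilon, the adult counterpart of gamma) of -0.12 ± 0.12 (SE). The cohorts differed in direction for Chrna1, at 0.30 ± 0.13 in cohort 1, where the mouse with NR was the higher on 4 of 4 days, and at -0.30 ± 0.19 in cohort 2, where it was the lower on 3 of 4. For Chrne they stood at 0.06 ± 0.13 and -0.30 ± 0.20 (SE), and the difference between cohorts was not tested. In cohort 2 with PT alone, replicate 8 was the highest mouse for both genes, at 24.4 CPM for Chrna1 and 27.0 CPM for Chrne. The other mice of that group and cohort were at 12.8 to 16.3 CPM and 14.9 to 17.7 CPM. The part of replicate 8 in the cohort values was not tested. Chrne ran from 10.3 through 16.2 to 21.0 CPM with NR and from 13.3 through 16.6 to 27.0 CPM without, so the groups overlapped throughout. Per kilobase of gene length, Chrng was at 0.201 CPM with NR and 0.0392 CPM without, and Chrne at 9.65 and 10.3 CPM, so the adult subunit remained the more abundant message in both groups. Musk, the receptor kinase that organises the synapse, had a log2 difference of -0.11 ± 0.14. Of the 23 tested genes of the neuromuscular junction list, Chrng among them, 6 lay above 0 and 0 passed in edgeR over all mice, with a median log2 difference of -0.03 against 0.00 over all genes tested. Chrng alone of them passed with limma-voom and in the edgeR fit to non-running mice. The count above 0 was 12 of 23 in cohort 1 and 5 of 23 in cohort 2. Ache, the acetylcholinesterase of the synaptic cleft, was at -0.20 ± 0.11, and Etv5, an ETS factor of synaptic nuclei, at -0.28 ± 0.11. In cohorts 1 and 2 Ache was at -0.09 ± 0.12 and -0.31 ± 0.14, and Etv5 at -0.05 ± 0.13 and -0.52 ± 0.13 (SE).

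The runner-up by p-value was Mymk, which encodes myomaker, the membrane protein of myoblasts needed for their fusion (ENSMUSG00000009214, mm10 chr2:27061636-27072179, minus strand). Levels ran from 0.496 through 0.914 to 1.40 CPM with NR and PT, and from 0 through 0.166 to 0.549 CPM with PT alone. The mouse with NR was the higher on 8 of 8 days, as for 66 of all genes tested (0.454%), and the groups overlapped only where the highest PT mouse met the lowest NR with PT mouse. The log2 difference was 2.62 ± 0.60 (SE, edgeR adjusted p = 0.401), with 2.94 ± 0.78 in cohort 1 and 2.19 ± 0.87 in cohort 2, and 2.96 without the libraries rich in ribosomal-RNA-like reads. Reads numbered 9 to 28 per library with NR and 0 to 6 without, and 7 of the 11 libraries that met the filter's level carried NR and PT, so this gene too was tested because of the group in which it was high.

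Beside Mymk, the tested genes of the myogenic and fusion list lay between -0.11 and 0.21 on the log2 scale. Myog, the myogenin gene that acts late in differentiation, had 3.55 ± 0.865 CPM with NR and 3.11 ± 0.316 CPM without (SD), a log2 difference of 0.21 ± 0.20 (SE). Myod1, the MyoD gene, was at -0.11 ± 0.12, Myf6, the regulator most abundant in adult fibres, at 0.04 ± 0.08, and Pax7, the satellite cell factor, at -0.03 ± 0.14. Of the 16 tested genes of the myogenic and fusion list 10 lay above 0 and 0 passed in edgeR, with a median of 0.02, whereas limma-voom called Mymk alone of them. Mymx, the partner of Mymk in fusion, had too few reads to be tested. The 10 satellite cell markers had a median of 0.01, with 6 above 0, and their summed level was 142 to 163 CPM with NR and 137 to 163 CPM without.

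Sln and Cdkn1a followed Chrng within the list of denervation-responsive genes. Sln encodes sarcolipin, a small inhibitor of the calcium pump of the sarcoplasmic reticulum (mm10 chr9:53850164-53854560, plus strand), and ran from 3.62 through 4.78 to 9.30 CPM with NR and PT and from 0.686 through 2.00 to 3.84 CPM with PT alone. The ranges touched in a single pair of values, the lowest mouse with NR and the highest without, and the mouse with NR was the higher on 8 of 8 days. The log2 difference was 1.55 ± 0.43 (SE, edgeR adjusted p = 1.00), at 1.48 in cohort 1 and 1.59 in cohort 2, and at 1.29 without the libraries rich in ribosomal-RNA-like reads.

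Cdkn1a, the cell cycle inhibitor p21 that is induced both by p53 and after denervation (mm10 chr17:29090976-29100722, plus strand), ran from 13.9 through 21.7 to 30.3 CPM with NR and from 10.7 through 14.1 to 17.9 CPM without. The groups overlapped, yet the mouse with NR was again the higher on 8 of 8 days. Its log2 difference was 0.64 ± 0.23 (SE, edgeR adjusted p = 1.00), and 0.46 without the libraries rich in ribosomal-RNA-like reads. Among 16 tested p53 targets 10 lay above 0, with Mdm2, the p53 ubiquitin ligase, at 0.09 ± 0.05 and Eda2r at 0.21 ± 0.13. Eda2r was at 0.42 ± 0.19 in cohort 1 and -0.01 ± 0.16 in cohort 2. Bax, another p53 target, lay below 0 in both, at -0.21 ± 0.12 and -0.03 ± 0.10 (SE).

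**Figure D2:**
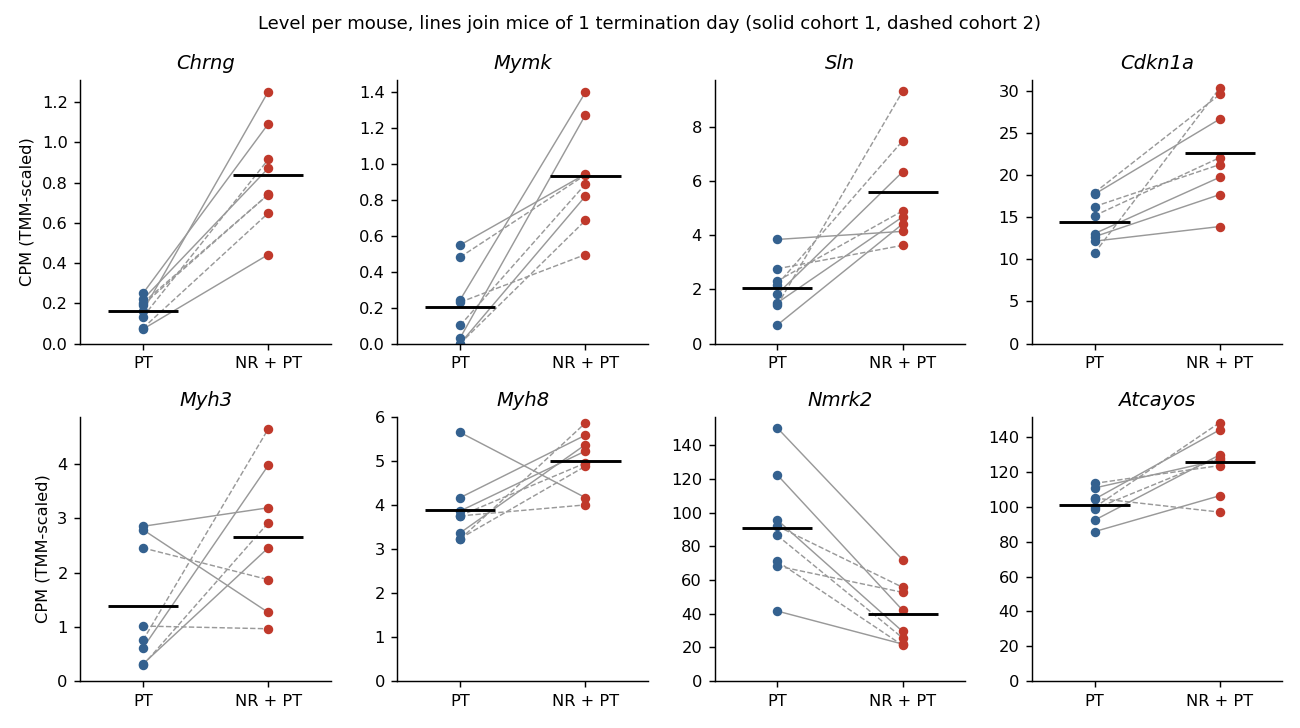
CPM per mouse (vertical, linear, from 0) of 8 genes in PT alone (blue) and NR with PT (red), with lines joining the 2 mice of a day of termination, solid for cohort 1 and dashed for cohort 2, and a black bar at each mean. Every line climbs for Chrng, Mymk, Sln and Cdkn1a and every line descends for Nmrk2, whereas lines cross for Myh3.

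The denervation list as a whole, with Chrng, Sln and Cdkn1a in it, had 17 of 25 tested genes above 0 and 0 passing in edgeR over all mice, where limma-voom and the edgeR fit to non-running mice called Chrng. The list had a median log2 difference of 0.06 against 0.00 over all genes tested, of which 50.3% lay above 0. Gadd45a, which is strongly induced in denervated and starved muscle, was at 15.9 ± 3.03 CPM with NR and 13.7 ± 1.68 CPM without (SD), a log2 difference of 0.23 ± 0.12. Runx1, a transcription factor of denervated fibres, was at 0.11 ± 0.18. Ncam1, the adhesion molecule that spreads over fibres without a nerve, was at -0.13 ± 0.14. The median of the list was 0.11 in cohort 1, with 21 of 25 above 0, and 0.02 in cohort 2, with 14 of 25. Without the libraries rich in ribosomal-RNA-like reads 14 of 25 lay above 0, with a median of 0.05.

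Nerve-derived markers were measured beside these genes. Of 13 tested markers of Schwann cells and nerve 3 lay above 0, with a median of -0.11 and a summed level of 79.3 to 96.0 CPM with NR and 81.5 to 109 CPM without. Sox10, the Schwann lineage factor, ran from 0.442 through 1.02 to 1.64 CPM with NR and from 1.14 through 1.61 to 1.90 CPM without, a log2 difference of -0.58 ± 0.21 (SE, edgeR adjusted p = 1.00). The groups overlapped for Sox10. Pmp22, a peripheral myelin protein, was at -0.13 ± 0.08. The neurofilament genes Nefl, Nefm and Nefh had too few reads to be tested. The list had a median of 0.04 in cohort 1 and of -0.20 in cohort 2, whereas Chrng was higher with NR in both, and the part of these markers in the Chrng and Sln values was not tested.

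Myosins and other sarcomere genes of developing muscle were higher with NR for some members. Myh3, embryonic myosin (mm10 chr11:67078300-67102286, plus strand), ran from 0.962 through 2.69 to 4.65 CPM with NR and from 0.289 through 0.881 to 2.85 CPM without, with wide overlap, and the mouse with NR was the higher on 5 of 8 days. The log2 difference was 1.09 ± 0.46. Myh8, perinatal myosin (chr11:67277124-67308634, plus strand), ran from 4.00 through 5.09 to 5.87 CPM with NR and from 3.22 through 3.76 to 5.65 CPM without. It was higher with NR on 7 of 8 days, with 1 mouse on PT alone, replicate 3, above most of the NR group, and its log2 difference was 0.39 ± 0.15 (SE). Both had an edgeR adjusted p of 1.00. Myl4, the atrial and embryonic light chain, was at 0.31 ± 0.17, whereas Actc1, the cardiac actin of immature fibres, was at -0.10 ± 0.24. The 12 tested genes of this list had 9 above 0, 0 passing and a median of 0.03.

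Atrophy genes differed by small amounts, mostly above 0. Trim63 and Fbxo32, the muscle ubiquitin ligases MuRF1 and atrogin-1, had log2 differences of 0.10 ± 0.07 and 0.04 ± 0.22. Foxo3, the factor that drives them, was at 0.10 ± 0.08, Mstn, myostatin, at 0.19 ± 0.16 and Ankrd1, a stretch-sensitive ankyrin repeat protein, at 0.23 ± 0.36. Of the 22 atrophy genes 18 lay above 0 and 0 passed, with a median of 0.05. The count was 17 of 22 in cohort 1 (median 0.06) and 17 of 22 in cohort 2 (0.08). It was 16 of 22 without the libraries rich in ribosomal-RNA-like reads (0.03). Fkbp5, a chaperone induced by glucocorticoids, was at 60.3 ± 16.8 CPM with NR and 38.1 ± 9.88 CPM without (SD), higher with NR on 8 of 8 days. Its log2 difference was 0.66 ± 0.23 (SE, edgeR adjusted p = 1.00), and the groups overlapped. Of the 16 glucocorticoid-responsive genes 11 lay above 0, with a median of 0.07, and 9 of 16 without the libraries rich in ribosomal-RNA-like reads, with a median of 0.01. Among them, in cohorts 1 and 2, Angptl4 was at -0.56 and -0.14, Mt1 at -0.04 and 0.47, and Cebpd at 0.19 and 0.23.

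**Figure D3:**
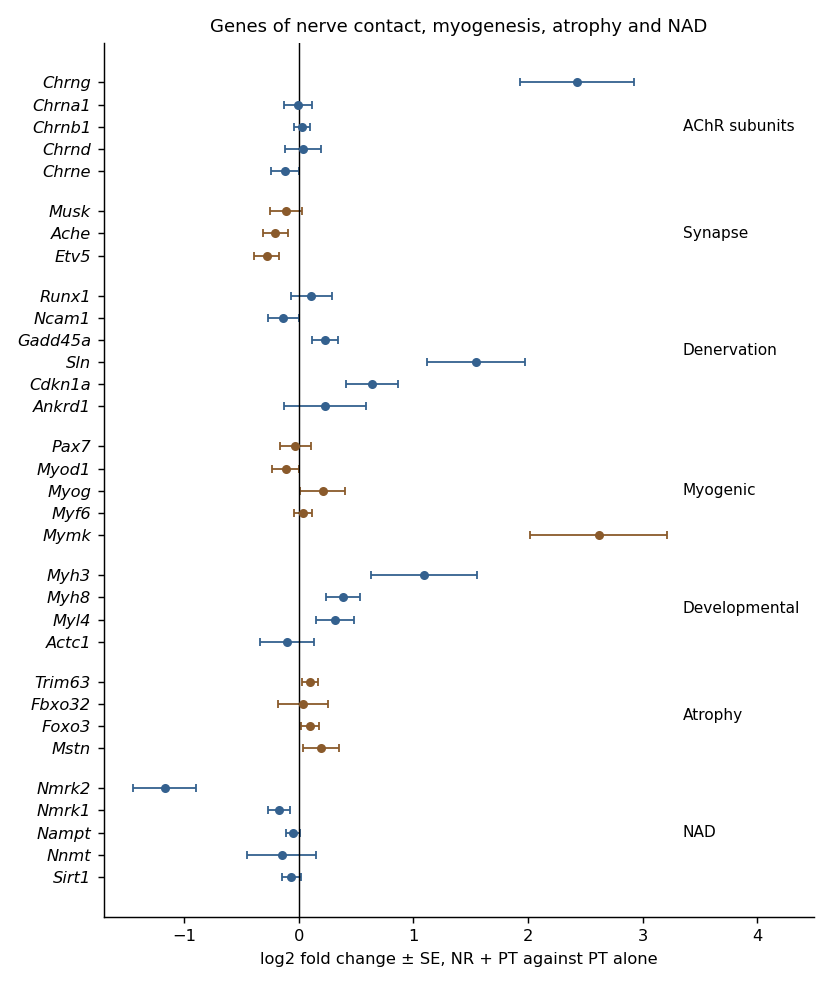
Fitted log2 fold change with its standard error (horizontal) for genes of nerve contact, myogenesis, developmental sarcomeres, atrophy and NAD. Chrng, Mymk and Sln lie at 2.43, 2.62 and 1.55 and Nmrk2 at -1.17, and the other genes lie closer to 0.

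Nmrk2 and its antisense neighbour Atcayos held the next places by p-value. Nmrk2, the muscle kinase that turns NR into nicotinamide mononucleotide (ENSMUSG00000004939, mm10 chr10:81198170-81202051, minus strand), ran from 21.1 through 35.7 to 71.9 CPM with NR and from 41.5 through 89.1 to 150 CPM without. The groups overlapped, and the mouse with NR was the lower on 8 of 8 days, as for 54 genes of all tested (0.371%). The log2 difference was -1.17 ± 0.28 (SE, edgeR adjusted p = 0.431), with -1.31 in cohort 1 and -1.05 in cohort 2. Atcayos (chr10:81194609-81209161, plus strand) ran from 97.0 through 128 to 148 CPM with NR and from 85.8 through 102 to 114 CPM without, higher with NR on 7 of 8 days. Its log2 difference was 0.31 ± 0.07 (adjusted p = 0.431). Atcayos overlaps Nmrk2 and Atcay on the other strand, and reads of these genes cannot be told apart with certainty, as the sources used here do not say how the counting treated strand.

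The rest of NAD metabolism stayed close to 0. Nampt, the rate-limiting enzyme of the salvage route from nicotinamide, was at 163 ± 11.2 CPM with NR and 169 ± 20.2 CPM without (SD), a log2 difference of -0.05 ± 0.06 (SE). Nmrk1, the widely expressed NR kinase, was at -0.17 ± 0.10, Nnmt, which methylates nicotinamide for excretion, at -0.15 ± 0.30, and Sirt1, an NAD-dependent deacetylase, at -0.07 ± 0.08. Slc25a51, the carrier that brings NAD into mitochondria, was at 0.09 ± 0.04 and Nmnat3, a mitochondrial adenylyltransferase of NAD synthesis, at 0.11 ± 0.06. Of 31 tested genes 13 lay above 0 and 0 passed, with a median of -0.02, and the median was -0.06 in cohort 1 and 0.02 in cohort 2.

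The other 6 of the 10 smallest p-values were those of Sln, already described, and of Gm5141, Nt5c3, Nwd1, Ncbp1 and Acsl5. Acsl5, an acyl-CoA synthetase that activates long-chain fatty acids, was the other gene whose groups did not overlap, at 6.50 through 7.63 to 8.54 CPM with NR and 8.76 through 9.29 to 10.7 CPM without. Its log2 difference was -0.34 ± 0.09 (SE, edgeR adjusted p = 1.00). It overlaps Zdhhc6 on the other strand. Nt5c3, a cytosolic pyrimidine nucleotidase, was at 55.3 ± 3.80 CPM with NR and 46.9 ± 3.40 CPM without (SD), higher on 8 of 8 days, with a log2 difference of 0.24 ± 0.06 (edgeR adjusted p = 0.962). Ncbp1, the large subunit of the nuclear cap-binding complex, was at 0.17 ± 0.05 and Nwd1 at -0.64 ± 0.18. The predicted gene Gm5141 was at -1.15 ± 0.30, with 2 to 13 reads per library with NR and 7 to 22 without.

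Energy metabolism differed by small amounts that depended on the libraries included. Of 75 nuclear-encoded subunits of oxidative phosphorylation 72 lay above 0 with a median log2 difference of 0.05 and 0 passed, led by Ndufa3 of complex I at 0.17 ± 0.10 (SE). The share above 0 was 22 of 75 in cohort 1 (median -0.03), 75 of 75 in cohort 2 (0.15) and 39 of 75 without the libraries rich in ribosomal-RNA-like reads (0.00). All 37 cytosolic ribosomal protein genes tested lay above 0 with a median of 0.06, at 18 of 37 in cohort 1, 37 of 37 in cohort 2 and 31 of 37 without those libraries, and Rps27 led them at 0.18 ± 0.09. Subunits of 1 complex share their regulation and their libraries, so these counts are not counts of independent observations.

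Some lists of fuel genes behaved likewise, whereas glycolysis and glycogen kept a median below 0. Fatty acid oxidation had 22 of 29 above 0 (median 0.08), with Ppard, a lipid-sensing nuclear receptor, at 0.14 ± 0.06, but 10 of 29 in cohort 1 and 25 of 29 in cohort 2. Without the libraries rich in ribosomal-RNA-like reads it had 15 of 29 above 0 and a median of 0.0047. The TCA cycle had 16 of 21 above 0 (0.03) and 6 of 21 without those libraries, and glycolysis and glycogen had 7 of 20 (-0.04). For glycolysis and glycogen the count was 3 of 20 in cohort 1 (-0.045) and 6 of 20 in cohort 2 (-0.047). It was 6 of 20 without the libraries rich in ribosomal-RNA-like reads (-0.07). In insulin signalling 13 of 24 lay above 0 (0.02), with Pik3r1 and Pik3ca, the regulatory and catalytic subunits of phosphoinositide 3-kinase, at 0.19 ± 0.08 and 0.12 ± 0.06, and Igf2, a fetal growth factor, at -0.68 ± 0.33. Igf2 was at -0.11 ± 0.45 in cohort 1 and -1.51 ± 0.49 in cohort 2 (SE). In lipogenesis 10 of 17 lay above 0, at 7 of 17 in cohort 1 and 11 of 17 in cohort 2, with Fads2, a fatty acid desaturase, at 0.29 ± 0.12 and Dgat1, which completes triglyceride synthesis, at -0.19 ± 0.09. Among regulators of the exercise response 6 of 21 lay above 0 (-0.05), with the nuclear receptor Nr4a3 at -0.998 ± 0.452 and the PGC-1 related coactivator Pprc1 at -0.16 ± 0.08. Nr4a3 was at -1.48 in cohort 1, -0.33 in cohort 2 and -0.61 without the libraries rich in ribosomal-RNA-like reads. Each of these lists had 0 genes past the threshold in edgeR.

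Fibre type lists held no gene past the threshold in edgeR. Of 12 slow fibre genes 8 lay above 0 (median 0.12), at 5 of 12 in cohort 1 (-0.04), 10 of 12 in cohort 2 (0.61) and 6 of 12 in DESeq2 (0.02), with Casq2, the slow and cardiac calsequestrin, at 0.46 ± 0.24. Myl3, the slow essential light chain, was at 1.24 ± 1.23, from 0.0455 through 0.464 to 29.3 CPM with NR and from 0 through 1.22 to 8.97 CPM without, so the median was lower and the mean higher with NR. Without the libraries rich in ribosomal-RNA-like reads Myl3 was at 0.58, under 2-fold. Of 15 fast fibre genes 10 lay above 0 with a median of 0.03, at 12 of 15 in cohort 1 (0.09) and 5 of 15 in cohort 2 (-0.03).

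**Figure D4:**
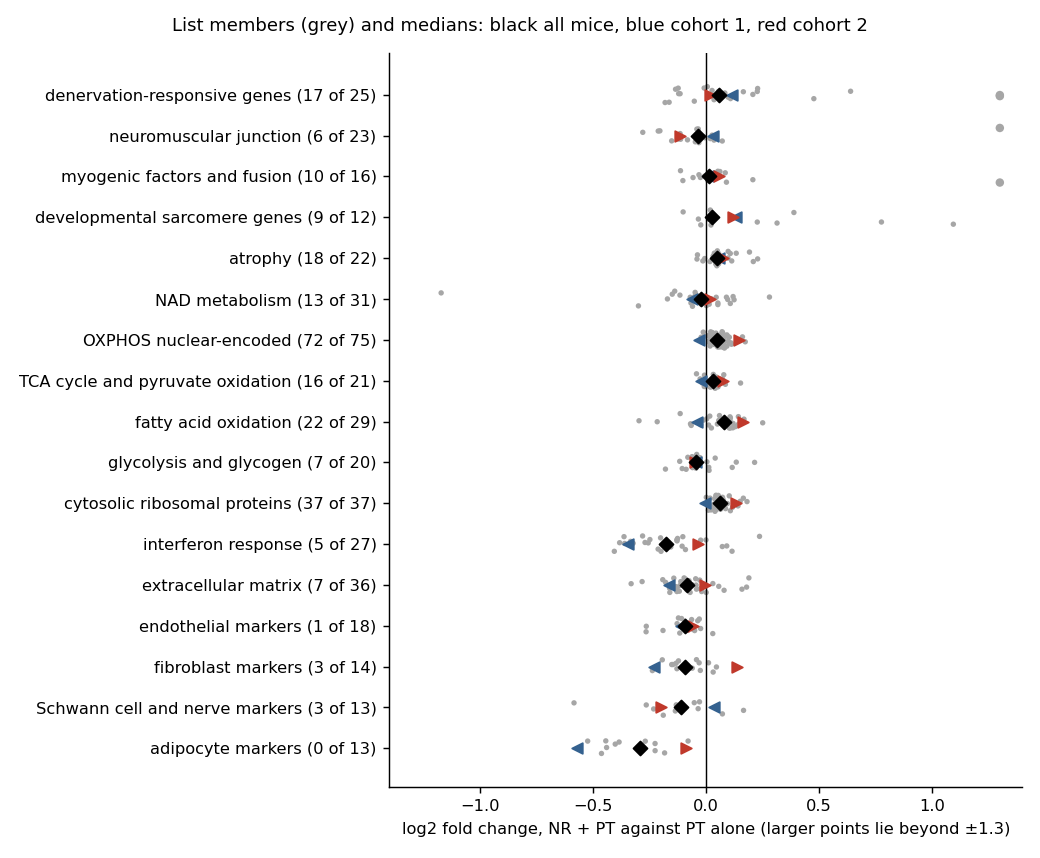
Log2 fold change (horizontal) of the members of 17 gene lists (grey points), with the median over all mice (black diamonds), in cohort 1 alone (blue) and in cohort 2 alone (red), and the number above 0 of those tested in brackets. The cohort medians lie apart for interferon, adipocyte, fibroblast and oxidative phosphorylation genes and close together for atrophy genes.

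Interferon response genes were mostly lower with NR. Of 27 tested 5 lay above 0 with a median log2 difference of -0.18, and 0 passed. Xaf1 was at -0.38 ± 0.16, Irf9 at -0.28 ± 0.12, Oasl2 at -0.40 ± 0.21 and Ifit3 at -0.36 ± 0.20 (SE), all of them products or mediators of the interferon response. The median was -0.34 in cohort 1, with 3 of 27 above 0, and -0.03 in cohort 2, with 13 of 27.

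Markers of other cells of the muscle were mostly on the lower side. Of 18 endothelial markers 1 lay above 0 (median -0.09), with Erg at -0.19 ± 0.11 and Eng at -0.12 ± 0.07 (SE), and a summed level of 449 to 508 CPM with NR and 443 to 558 CPM without. The count above 0 was 1 of 18 in cohort 1 (-0.11) and 5 of 18 in cohort 2 (-0.06). In cohorts 1 and 2 Erg was at -0.0059 and -0.36, and Eng at -0.21 and -0.02. Of 12 smooth muscle and pericyte markers 2 lay above 0 (-0.09), with Acta2, smooth muscle actin, at -0.29 ± 0.14. That list had 3 of 12 above 0 in cohort 1 (-0.05) and 2 of 12 in cohort 2 (-0.12), with Acta2 at -0.47 and -0.12. Of 13 adipocyte markers 0 lay above 0 (-0.29), with Car3, carbonic anhydrase 3, which fibres also express, at -0.44 ± 0.21, Lipe at -0.29 ± 0.19, Fabp4 at -0.22 ± 0.15 and Cfd at -0.52 ± 0.41. Their summed level was 783 to 1451 CPM with NR (median 1084) and 1076 to 1855 CPM without (median 1401). Most of this sum was Car3, at means of 718 and 739 CPM with NR in cohorts 1 and 2, and 1036 and 923 CPM without. The sum is therefore not a level of fat cells alone. The median log2 difference of the list was -0.57 in cohort 1 and -0.09 in cohort 2. Without the libraries rich in ribosomal-RNA-like reads 2 of 13 lay above 0, with a median of -0.17.

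For most lists of stromal and blood cells the side of 0 varied with the libraries used. Fibroblast markers had 3 of 14 above 0 (-0.09), at 8 of 14 without the libraries rich in ribosomal-RNA-like reads, and extracellular matrix genes 7 of 36 (-0.08), at 25 of 36 without them, with Col15a1 at -0.28 ± 0.13 and Lama4 at -0.19 ± 0.12 in all mice (SE). Macrophage and neutrophil markers had 5 of 15 above 0 (-0.06), with 2 of 15 in cohort 1 and 14 of 15 in cohort 2, and 11 of 15 (0.10) without the libraries rich in ribosomal-RNA-like reads. Erythrocyte markers had 2 of 5 above 0, and of 8 lymphocyte markers 1 had enough reads to be tested. That marker, Cd3e, was at 0.38, with 0.41 ± 0.24 in cohort 1 and 0.38 ± 0.27 in cohort 2 (SE). Without the libraries rich in ribosomal-RNA-like reads it was at 0.51. No marker of any of these lists passed the edgeR test.

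Whether NR differed in its effect with and without PT was tested in sedentary mice as the NR difference with PT minus that without PT. It called 0 genes in edgeR (0%), with 293 (2.01%) at an unadjusted p below 0.05, and 0 in DESeq2 and limma-voom. For Chrng the difference of differences was 2.19 ± 0.71 (SE, adjusted p = 1.00). In mice without PT, Chrng was at 0.388 ± 0.411 CPM with NR and 0.297 ± 0.176 CPM with neither supplement (SD). For Mymk it was 2.02 ± 0.89, for Sln 1.59 ± 0.60 and for Cdkn1a 0.54 ± 0.32, and for Nmrk2 it was 0.27 ± 0.39 (SE). Chrng and Mymk entered this test through sedentary NR with PT, so their differences are not independent of the filter. The smallest p-values were those of D830024N08Rik (0.89 ± 0.23), Sspo (1.59 ± 0.44) and Sgsm1 (1.44 ± 0.41), each with an edgeR adjusted p of 1.00. D830024N08Rik overlaps Tecr on the other strand, and Sspo and Sgsm1 had means below 1 CPM in both compared groups.

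The same NR comparison on PT in running mice gave a further test, with the sedentary minus the running difference. It called 0 genes in edgeR (0%), with 518 (3.56%) at an unadjusted p below 0.05, and 0 in DESeq2 and limma-voom. For Chrng this difference was 2.04 ± 0.87, for Sln 2.08 ± 0.68, for Cdkn1a 1.04 ± 0.33 and for Mymk 1.01 ± 1.33 (SE), each with an adjusted p of 1.00. The same selection by the filter bears on Chrng and Mymk here. In runners Sln was at 0.878 ± 0.365 CPM with NR and PT and 1.29 ± 0.826 CPM with PT alone (SD), and Cdkn1a at 8.71 ± 2.07 and 12.1 ± 7.90 CPM. Nmrk2 was at 45.7 ± 18.4 and 87.8 ± 32.6 CPM in these runners, a difference from sedentary mice of -0.19 ± 0.39 (SE). The smallest p-values belonged to Gm10481 (-1.44 ± 0.36), Prkcz (0.94 ± 0.23) and B3galt6 (-0.78 ± 0.20).

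**Figure D5:**
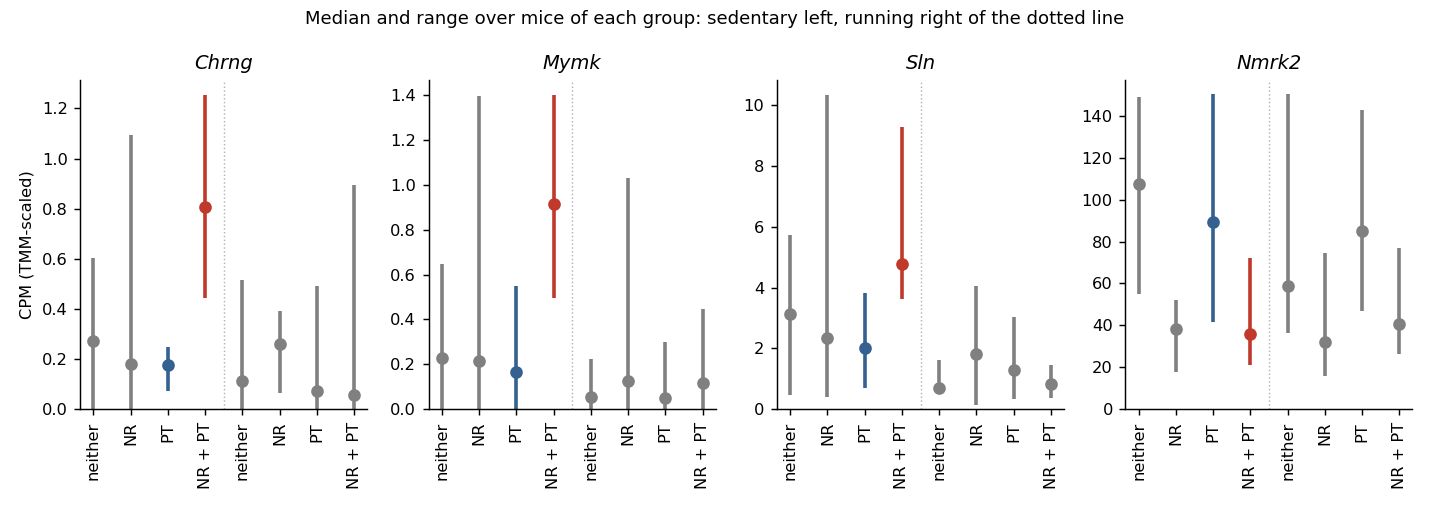
CPM (vertical, linear, from 0) of Chrng, Mymk, Sln and Nmrk2 in all 8 groups of the series, with points at the median and lines from the lowest to the highest mouse, red for sedentary NR with PT and blue for sedentary PT alone. The red medians of Chrng, Mymk and Sln are the highest of the 8, and Nmrk2 medians are lower in each group with NR than in its counterpart without NR. Chrng and Mymk entered the test through the red group.

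In the order of the 8 groups, sedentary NR with PT had the highest median of Chrng, at 0.806 CPM, followed by sedentary mice with neither supplement at 0.274 CPM. Single mice of other groups reached similar levels, up to 1.09 CPM with sedentary NR alone and 0.895 CPM in runners with NR and PT. For Mymk the highest median was again that of sedentary NR with PT, at 0.914 CPM, then 0.226 CPM in sedentary mice with neither supplement, and single mice on sedentary NR alone reached 1.40 CPM. Chrng and Mymk entered the test through sedentary NR with PT, where 7 libraries met the filter's level for each gene. Sedentary PT alone had 0 such libraries, and the other groups together had 3 for Chrng and 4 for Mymk. The top rank of these genes is therefore not independent of the filter. Sln had medians of 4.78 CPM and, next, 3.13 CPM in sedentary mice with neither supplement, whose range of 0.453 to 5.72 CPM overlapped it, and single mice on sedentary NR alone reached 10.3 CPM, above the highest mouse with NR and PT.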

How the data were processed

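Poly-A RNA of 62 quadriceps was sequenced from stranded libraries, per the labels' protocols. The values deposited are raw read counts, 1 whole number for each gene and mouse, without normalization, beside a gene length in bases. Reads were aligned with STAR 2.7.3a and counted with featureCounts 2.0.0 on mm10, per the submitters' processing notes. Neither the annotation release nor the strand setting is stated (not given in the sources used here). Of 55487 gene identifiers 99.8% matched symbols in GENCODE M21, and coordinates are those deposited.

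Genes passing filterByExpr (minimum count 10, total 15) were scaled by TMM and tested by edgeR 4.0.16 quasi-likelihood F tests (R 4.3.3) over all 62 mice, with group, day and time of termination as terms (46 residual degrees of freedom). A gene was called at a Benjamini-Hochberg adjusted p under 0.05 over 14549 genes. DESeq2 1.42.0, limma-voom (limma 3.58.1), other scalings, filters, samples and covariates, and leaving out each mouse were alternatives. Levels are TMM-scaled CPM, and standard errors were derived from the F statistic. The pipeline was tested on simulated data.

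The comparison, the lists and the choice of genes to name were made with earlier results of these data known. Named were the 10 smallest p-values (fewer than 5 genes being called), up to 4 members per described list by p, the 3 smallest p-values of each test of a difference, and 30 preset genes, of which 1 is not reported here. Lists are described by counts and medians, with no set test. Mice of 1 group are separate libraries, the lowest chi-square per gene between 2 of a group being 4.48 over 56 pairs. Same-numbered mice of the groups did not deviate together, and the mice are paired here only through the day of termination.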

Additional observations from a re-analysis of the deposited data

Results flagged for a closer look

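A single mouse stood apart from the other 7 of its group for several values, by a gap to the next mouse large against the whole range of the group (Dixon's criterion for 8 values). Chance alone gives this in about 1 of 20 groups, and 17 of 162 groups examined met it.

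In mice with NR and PT these were Myod1 at 7.00 CPM in replicate 2, Chrnb1 at 30.2 CPM in replicate 5, Xaf1 at 1.60 CPM in replicate 3, Rps27 at 122 CPM in replicate 8 and Sspo at 1.37 CPM in replicate 6. In the same group the ribosomal-RNA-like share was 1.45% in replicate 2 and the mitochondrially encoded share 12.5% in replicate 5.

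In mice with PT alone, replicate 8 stood apart for the acetylcholine receptor subunits Chrna1 at 24.4 CPM, Chrnd at 5.69 CPM and Chrne at 27.0 CPM, and for Lama4 at 26.3 CPM and Pprc1 at 18.1 CPM. Replicate 2 did so for Col15a1 at 67.9 CPM and Nr4a3 at 7.90 CPM, replicate 3 for Myh8 at 5.65 CPM, replicate 4 for Rps27 at 104 CPM and replicate 6 for Musk at 14.6 CPM. None of the genes with the 10 smallest p-values was among them.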

How the results depend on the processing

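The count of called genes was 0 in edgeR and in DESeq2, 1 in the fit to the 32 non-running mice and 2 with limma-voom, and 0 in each fit without 1 mouse. Chrng, Mymk, Gm5141, Sspo and Sgsm1 did not pass the filter on low counts when only the 16 compared mice were fitted, so those fits gave no value for them. With the replicate number as a block in place of day and time 0 genes were called, with 450 at an unadjusted p below 0.05. The numbers did not pair the mice (correlation of deviations -0.20 to 0.14), and by day it was -0.04 to 0.41. Directions of Chrng, Mymk, Sln, Cdkn1a, Nmrk2 and Atcayos held in every fit that gave a value. Some directions turned, that of Myl3 (1.24 as reported) and Eda2r (0.21) among them, and the cause was not tested. Without the libraries rich in ribosomal-RNA-like reads Nnmt was at 0.060, Sirt1 at 0.0044, Myf6 at -0.0010, Fbxo32 at -0.045 and Sspo at -0.093. Cohort 1 alone gave Chrna1 0.30, Chrne 0.062, Musk 0.051, Ncam1 0.092, Runx1 -0.057 and Sspo -0.20, and cohort 2 alone gave Nnmt 0.079, Pax7 0.058, Chrnd -0.092 and Eda2r -0.010. Body weight change as a term gave Chrnd -0.018 and Fbxo32 -0.0079, the replicate block Fbxo32 -0.0061, group alone Fbxo32 -0.029 with 62 and -0.030 with 16 mice, group and day on 16 mice Chrna1 0.0055, and limma-voom Myl3 -0.034. Leaving out 1 mouse at a time gave ranges of -0.30 to 0.084 for Nnmt, -0.0038 to 0.078 for Myf6, -0.080 to 0.021 for Pax7, -0.060 to 0.12 for Chrna1, -0.065 to 0.21 for Chrnd, -0.19 to 0.0075 for Chrne, -0.25 to 0.017 for Actc1, -0.072 to 0.10 for Fbxo32 and -0.032 to 1.95 for Myl3. Chrng and Mymk rest on 1 to 28 reads in libraries where they were seen, which limits their precision.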
